A study of Mus musculus with 15 samples.

Results

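The comparison was that of 005 tumors with Mut3 tumors, and its members were the 3 samples labelled brain tumor 005 and the 3 labelled brain tumor Mut3, of the 15 samples of the series. All genes entered it, which were 46679 genes in the files and 17481 after a filter on low counts. Both lines are mouse glioblastoma models of genetically altered origin, 005 carrying activated H-ras and AKT on a p53+/− background and Mut3 carrying inactivated NF1 and p53 among its alterations. Each line had been transduced with a retrovirus that expresses GFP and Firefly luciferase, and both grew in neurobasal medium with EGF and FGF-2. 005 cells were selected with puromycin, whereas Mut3 cells were sorted for GFP. C57BL/6 mice aged 6 to 8 weeks received 100000 cells of 005 or 500000 cells of Mut3 in the right hemisphere, and tumors were taken after perfusion from 3 mice per group at the humane endpoint, which Mut3 tumors took longer to reach. RNA came from bulk tissue, in which tumor and host cells were not separated. The background was 3 samples of naïve brain from C57BL/6 mice. Each arm is a single line, so the line, the genetic alterations, the cell number implanted, the selection and the time to the endpoint cannot be told apart. The question was how the tumors that these lines form differ in tumor cell programs and in the host tissue around them.

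Active RAS signals through RAF and MEK to ERK, and ERK induces its own brakes, among them the DUSP phosphatases and the Sprouty and Spred proteins. Neurofibromin, the product of Nf1, returns RAS to its inactive state, and AKT acts downstream of the same growth factor receptors, so both lines have lesions in one signalling network at different points. Gliomas also differ in the lineage they resemble, from oligodendrocyte progenitors marked by Olig2, Sox10 and the chondroitin sulfate proteoglycan Cspg4 to mesenchymal states marked by Cd44, and in the macrophages and T cells they hold.

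Total counts were between 8523676 and 13130158 in 005 and between 7525006 and 11308105 in Mut3, so that 3 counts, the floor used here, corresponded to 0.214 to 0.377 CPM (the count scaled to a common library size by TMM). 005 replicate 3 stood apart from the other 005 samples. In log2 CPM, its mean distance from naïve brain was 145.8 and from the rest of 005 it was 202.8, and mitochondrial genes took 17.8% of its counts, against 4.60% to 6.42% in the other tumors compared and 14.97% to 23.97% in naïve brain. The summed CPM of 28 neuron genes was 6611 in 005 replicate 3, 1244 and 479 in 005 replicates 1 and 2, 215 to 336 in Mut3 and 8245 to 10429 in naïve brain. 005 replicate 2 stood apart in immune genes, with 261 CPM of Ptprc, the pan-leukocyte phosphatase CD45, against 46.2 and 50.1 in the other 005 samples. Counts of called list members are therefore given also without 005 replicate 3, and those of immune lists also without replicate 2. Single genes whose call was lost without either are named in part. A gene without such a remark need not have kept its call without replicate 2. In bulk tissue, fewer cells of a type and less RNA per cell cannot be told apart. The share of host tissue in each sample was not measured.

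With a call defined as an adjusted p under 0.05 together with a log2 fold change of 1 or more in either direction (edgeR's quasi-likelihood test with Benjamini-Hochberg adjustment), 2456 genes (14.0% of those tested) were higher in 005 and 1007 genes (5.76%) were lower. Without 005 replicate 3 the numbers were 1763 (9.63%) and 1189 (6.5%), of which 1459 and 785 were also among those called with all samples, and without 005 replicate 2 they were 2318 (12.7%) and 770 (4.21%). Of the genes called with all samples, 0 were called in the opposite direction in any alternative fit. The higher genes made up 70.92% of the calls with all samples and 59.72% without 005 replicate 3. Among the 2456 higher genes, 005 replicate 3 had the highest value of the 005 samples for 54.7%, replicate 2 for 35.3% and replicate 1 for 9.98%. The samples of the lines did not overlap for 18.3% of all tested genes with 005 above and for 15.9% with 005 below. The median log2 fold change over all tested genes was 0.10, and −0.03 without 005 replicate 3. Fold changes below are log2 of 005 over Mut3 with the standard error after ±, and a gene is said to be higher or lower only where it passed both thresholds.

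The 12 largest increases included Cpa3, Cma1, Mcpt1 and Mcpt2, which encode a carboxypeptidase and chymases of mast cell granules. Cpa3 was at 4.84, 64.8 and 6.48 CPM in 005 and at 0, 0 and 0.0880 CPM in Mut3, where a single count was found in all, and the pooled ratio was 595 (95% interval 106 to 23549.5, counting error only). Cma1 was at 10.1, 154 and 3.703 CPM in 005 and 0.336, 0.377 and 0.352 CPM in Mut3 (7.24 ± 1.29, adjusted p = 0.00262). Replicate 2 held most of the signal of these genes, and without it the log2 fold changes were 6.80 for Cpa3, 4.22 for Cma1, 4.87 for Mcpt2 and 4.89 for Mcpt1, all still called. Mcpt1 and Mcpt2 are near-identical relatives, as are the granzymes Gzmd and Gzmg, which were also among the largest increases, so the division of reads within each pair is uncertain. The other large increases were Ifi202b, which belongs to a family of near-identical genes, Chil3, a chitinase-like protein of macrophages, the nonclassical class I gene H2-M2, the EGFR ligand Areg, the chromatin protein Hmga2 and Grin2b. Grin2b, a subunit of the neuronal NMDA receptor, was at 115, 20.6 and 237 CPM in 005, 0.448, 0.503 and 2.902 in Mut3 and 480.0, 189 and 395 in naïve brain, so that 005 replicate 3 lay within the range of brain tissue.

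The 12 largest decreases included Col9a1, Cnmd and Snorc, which are known from cartilage and are described first. Col9a1 (chr1:24177610-24252684), a chain of collagen IX, was at 1.13, 2.17 and 4.34 CPM in 005 and 384, 238 and 349 CPM in Mut3 (−6.95 ± 0.47, adjusted p = 5.88e-06). Cnmd, which encodes chondromodulin, an inhibitor of vessel growth from cartilage, was at 4.94, 8.57 and 12.7 CPM in 005 and 252, 644 and 1242 CPM in Mut3 (−6.34 ± 0.57, adjusted p = 2.37e-05). Each of these Mut3 values lay above every 005 value, and naïve brain, at 2.704 to 4.98 CPM for Col9a1 and 7.14 to 9.96 for Cnmd, was near 005. Snorc, a proteoglycan of chondrocytes, ranged more widely in Mut3, at 2.24, 6.79 and 65.3 CPM against 0.103, 0.241 and 0.356 CPM in 005. Other genes with large decreases were close to absent from 005. Crocc2 had 0 counts in all 005 samples and 10.4, 12.3 and 6.16 CPM in Mut3, which makes it at least 98.6-fold higher in Mut3 (against 3 counts over the group). The cardiac actin gene Actc1 had 2 counts in all of 005 and 15.3, 34.7 and 9.94 CPM in Mut3, a pooled ratio of 298 (95% interval 82.1 to 2469, counting error only). The muscle fructose bisphosphatase Fbp2 was at 0.515, 0.483 and 0.498 CPM in 005 and 124, 66.7 and 49.7 in Mut3, and the pluripotency-associated noncoding RNA Platr3 at 0.103, 0.241 and 0.142 and 20.5, 48.8 and 44.8 CPM. The others were Wfdc12, Ly6g6c, Mrap, Fndc3c1 and the testis cytochrome c Cyct, with fold changes from −8.03 to −6.104 on the log2 scale.

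**Figure D1:**
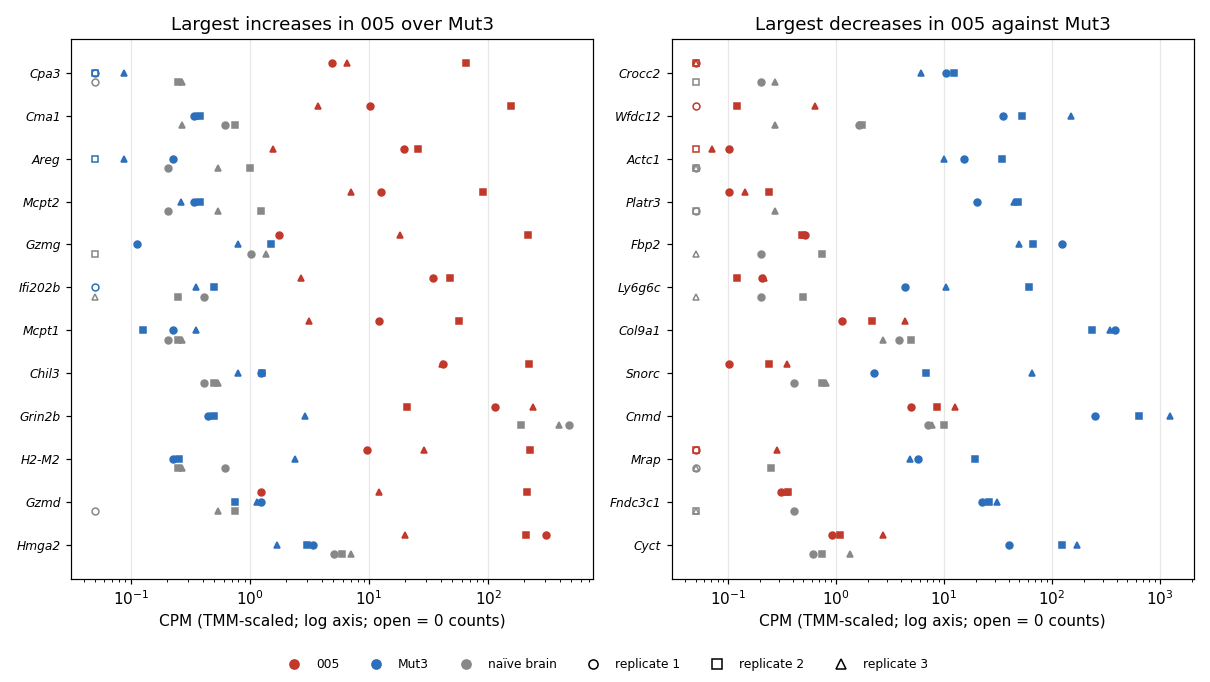
CPM (TMM-scaled, log axis) of the 12 genes with the largest increases in 005 over Mut3 (left) and the 12 with the largest decreases (right), with 1 point per sample, colors for 005, Mut3 and naïve brain, shapes for the replicate and open points at the left edge for 0 counts. For the mast cell genes 005 replicate 2 (square) lies to the right of the other 005 samples, and for Col9a1 and Cnmd all 005 samples lie with naïve brain and the 3 Mut3 samples lie at 238 CPM or more.

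The genes altered in the lines were compared next. Trp53, which encodes p53, was at 14.6, 20.2 and 19.7 CPM in 005 and 86.7, 51.6 and 43.01 CPM in Mut3. It was lower in 005 (−1.73 ± 0.33, adjusted p = 0.00375; −1.85 without replicate 3), with no overlap, and naïve brain was at 8.98 to 13.9 CPM. For Nf1 the values were 27.2, 48.8 and 19.2 CPM in 005 and 21.6, 13.7 and 14.9 CPM in Mut3, the samples overlapped, and the gene was not called (0.92 ± 0.35, adjusted p = 0.0768), whereas it was higher without replicate 3 (1.13, adjusted p = 0.0339). Hras was at 11.02, 8.93 and 15.7 CPM in 005 and 10.5, 4.91 and 5.98 CPM in Mut3 and was not called (0.74 ± 0.45, adjusted p = 0.266). The same held for Nras, Akt1, Akt2, Cdkn2b and Rb1, while Cdkn2a, at 1.34, 3.98 and 0.926 CPM in 005 and 5.59, 4.66 and 9.06 CPM in Mut3, did not overlap between the lines at an adjusted p of 0.0664. Counts are summed over each gene, and the altered segment of each gene and the counting of an introduced Hras or Akt sequence are not given in the sources used here, so these values do not check the alleles.

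p53 is a transcription factor, and 19 of its known targets were tested. Phlda3, an inhibitor of AKT, and Mdm2, the ligase that degrades p53, were higher in 005, and Btg2, an antiproliferative gene, was lower, which is 2 higher and 1 lower of 19, and 2 and 2 without replicate 3, when Sesn1 was lower too. Mdm2 was close to both thresholds (1.05, adjusted p = 0.024) and was not called without 005 replicate 1 or 2, without Mut3 replicate 2 or 3 or with library size scaling, and Btg2 was not called without Mut3 replicate 1. Phlda3 was at 1.85, 2.41 and 3.42 CPM in 005, 0.224, 0.252 and 0.176 CPM in Mut3 and 3.67, 5.73 and 2.16 CPM in naïve brain (3.49 ± 0.58, adjusted p = 0.00181). The Mut3 samples were thus below both the other groups, at or under the floor of 3 counts. For Cdkn1a, the cell cycle inhibitor p21, the fold change was 0.38 ± 0.68 at an adjusted p of 0.734. The shares called in this list were near those of all genes, and its median was 0.38.

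ERK feedback genes were higher in 005 as a group. Of 19 RAS-ERK targets tested, 14 were higher, 0 were lower and the median was 2.03, and without 005 replicate 3 there were 12 higher, 0 lower and a median of 1.77. Without 005 replicate 2 there were 13 higher and 0 lower, with a median of 1.72. Dusp6 (chr10:99263231-99267489), the cytoplasmic phosphatase of ERK, was at 183, 160.4 and 49.98 CPM in 005, 13.98, 11.4 and 15.7 CPM in Mut3 and 29.99, 39.1 and 27.9 CPM in naïve brain (3.25 ± 0.43, adjusted p = 0.000437). The 005 samples were above and the Mut3 samples below every naïve brain sample. Dusp5, its nuclear counterpart, was at 20.9, 21.1 and 10.2 CPM in 005 and 1.01, 2.77 and 0.352 CPM in Mut3 (3.68 ± 0.68, adjusted p = 0.00325). Fosl1, an AP-1 subunit, was at 40.8, 36.2 and 2.63 CPM in 005 and 0.895, 1.76 and 0.528 CPM in Mut3 (4.65 ± 0.86, adjusted p = 0.00311). Replicate 3, the sample nearest to brain tissue, was much the lowest of 005. Spred2, a RAF inhibitor, varied least, at 30.1, 31.4 and 29.2 CPM in 005 and 6.27, 11.3 and 10.9 CPM in Mut3 (1.67 ± 0.29, adjusted p = 0.00252). Spry1, Spry2, Spry4, Spred1, Dusp4, Phlda1, Ier3 and Ccnd1 were higher as well, by 1.20 to 4.07, and kept their calls without replicate 3. Egr1, an immediate early transcription factor, and Epha4, a receptor of ephrins, were higher through replicate 3, at 20.7, 33.3 and 148 CPM of Egr1 and 25.96, 6.04 and 147 CPM of Epha4 in 005, and were not called without it. Etv1, Etv5, Il17rd, Epha2 and Spred3 were not called.

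**Figure D2:**
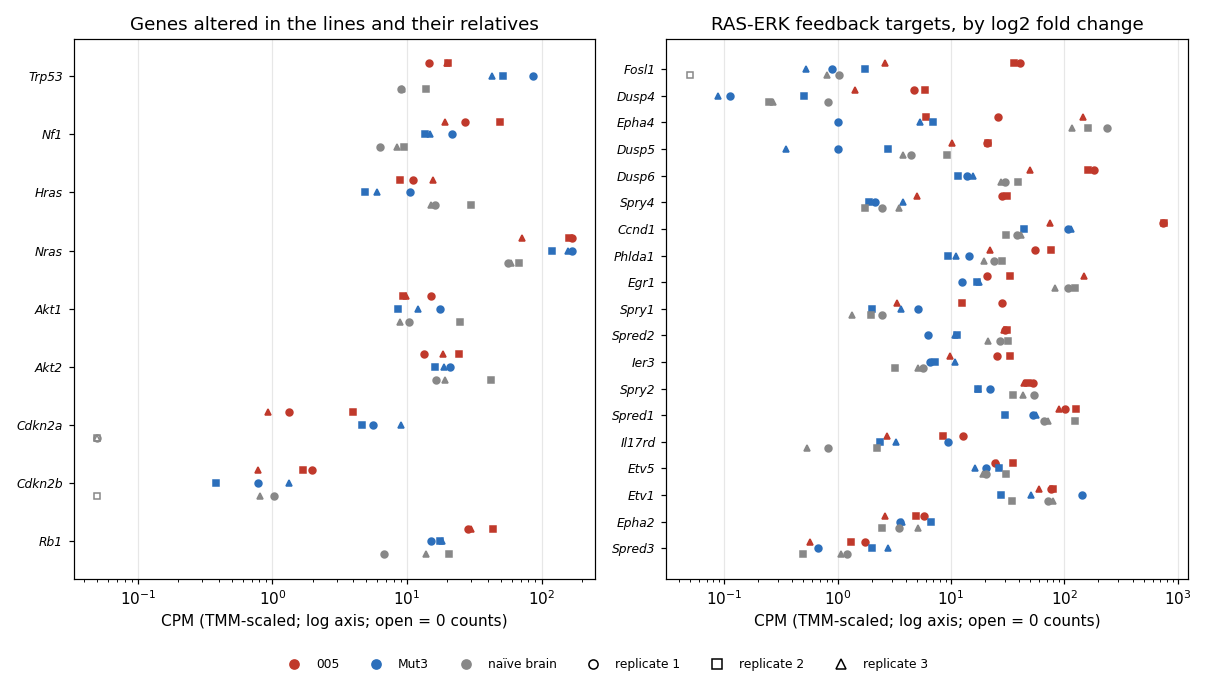
CPM (TMM-scaled, log axis) per sample of the genes altered in the lines and their relatives (left) and of the 19 RAS-ERK targets tested, ordered by log2 fold change (right), with colors for 005, Mut3 and naïve brain and shapes for the replicate. Trp53 lies lower in all 005 samples than in Mut3, and from Fosl1 to Spred1 most 005 points lie to the right of Mut3, with replicate 3 (triangle) closest to Mut3 for Fosl1, Dusp4, Spry4 and Ccnd1 and farthest from it for Egr1 and Epha4.

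Of 28 receptor tyrosine kinases and their ligands tested, 15 were higher and 1 was lower, with a median of 1.70 (13 higher and 3 lower without replicate 3, 12 and 1 without replicate 2). The ligand genes that were higher included Areg and Btc, which both activate EGFR. Areg was at 19.8, 25.7 and 1.57 CPM in 005 and 0.224, 0 and 0.0880 CPM in Mut3, where it had 3 counts in all, and the pooled ratio was 126 (95% interval 42.7 to 611, counting error only). Met, the receptor of hepatocyte growth factor, was at 46.4, 18.7 and 5.13 CPM in 005 and 0.448, 0.881 and 0.528 CPM in Mut3 (5.22 ± 0.93, adjusted p = 0.0026). Axl, a receptor of Gas6, was at 72.3, 79.3 and 18.8 CPM in 005 and 8.06, 11.3 and 7.74 CPM in Mut3 (2.65 ± 0.48, adjusted p = 0.00294). All 005 samples exceeded Mut3 for these receptors. Pdgfra, the platelet-derived growth factor receptor of oligodendrocyte progenitors, went the other way, at 6.901, 10.1 and 13.8 CPM in 005 and 40.1, 18.9 and 38.3 CPM in Mut3 (−1.65 ± 0.36, adjusted p = 0.00697). Egfr was not called (−1.802 ± 0.70, adjusted p = 0.0801), and Erbb3 and Ephb2 were lower in 005 when replicate 3 was left out.

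Genes of oligodendrocyte and neural progenitors were often lower in 005. Of 29 neural stem and glial progenitor factors tested, 13 were lower and 4 higher, with a median of −1.17, against a background of 5.76% lower and 14.0% higher, and there were as many without replicate 3, with Sox10 in place of Hes6 and a median of −1.47. Without replicate 2 there were 10 lower and 3 higher, with a median of −1.09. Olig2, the transcription factor that specifies oligodendrocyte progenitors, was at 9.99, 12.2 and 22 CPM in 005, 207, 124 and 316 CPM in Mut3 and 9.996 to 20.9 CPM in naïve brain (−3.87 ± 0.51, adjusted p = 0.000417). Cspg4, the NG2 proteoglycan, was at 5.25, 9.18 and 7.62 CPM in 005 and 109, 68.95 and 121 CPM in Mut3 (−3.76 ± 0.46, adjusted p = 0.000312). The groups were far apart for both, and 005 lay near naïve brain. In the tumors of the other lines of the series, CT2A and GL261, Olig2 was between 2.17 and 41.04 CPM. Gpr17, a receptor of committed oligodendrocyte precursors, was at 3.19, 4.35 and 9.83 CPM in 005 and 183, 56.1 and 125 CPM in Mut3 (−4.38 ± 0.58, adjusted p = 0.000417). Sox8 fell on the same side (−3.77 ± 0.48), as did Sox2, Sox5, Sox6, Olig1, Nkx2-2, Fabp7, Ptprz1 and Hes6.

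Among the progenitor genes that were higher in 005 were Lhx2 and Emx2, which pattern the developing forebrain, and Hes1, a target of Notch. Lhx2 was at 3.296, 4.71 and 12.5 CPM in 005 and 0.448, 0.252 and 0.264 CPM in Mut3, where it was near the floor (4.36 ± 0.84, adjusted p = 0.00396). Emx2 was low in all samples and overlapped between the lines, at 0.206, 4.35 and 2.28 CPM in 005 and 0.112, 0.252 and 0.0880 CPM in Mut3, and it was not called without 005 replicate 2 or without any of the Mut3 replicates. Hes1 (1.36) only just passed the threshold on adjusted p. Its call was lost without 005 replicate 1 or 2, without Mut3 replicate 1 or 3 and with library size scaling.

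Of 22 collagens tested, 7 were lower in 005 (31.8%, against 5.76% of all tested genes) and 3 higher (13.6%, against 14.0%), or 7 and 4 without replicate 3, and the lower ones included the cartilage-type chains Col2a1, Col9a1, Col9a3, Col11a1 and Col11a2. Col2a1, the main collagen of cartilage, was at 3.61, 3.501 and 5.48 CPM in 005, 141, 153 and 68.3 CPM in Mut3 and 3.06 to 3.79 CPM in naïve brain (−4.83 ± 0.41, adjusted p = 1.94e-05). Col11a1 was at 6.39, 10.4 and 6.55 CPM in 005 and 146, 223 and 654 CPM in Mut3 (−5.46 ± 0.57, adjusted p = 9.08e-05), and the 005 samples of all 5 chains lay near brain level, below every Mut3 sample. The higher ones were Col5a1, Col5a2 and Col8a1, by 2.07 to 2.25. The interstitial chains Col1a1, Col1a2 and Col3a1 were not called. Of 22 proteoglycans, tenascins and other neural matrix genes, 6 were lower and 4 higher (7 and 5 without replicate 3). Hapln1, a link protein that binds hyaluronan to proteoglycans, was at 2.06, 1.21 and 18.8 CPM in 005, 196, 172 and 226 CPM in Mut3 and 20.2, 17.2 and 14.9 CPM in naïve brain (−4.72 ± 0.77, adjusted p = 0.00164). Acan, the aggrecan of cartilage and perineuronal nets, was at 0, 0.121 and 0.570 CPM in 005 and 6.82, 11.95 and 9.67 CPM in Mut3 (−5.14 ± 0.95, adjusted p = 0.00317), and Tnr, tenascin R, differed by −3.52 ± 0.70. On the other side Spp1, the secreted phosphoprotein osteopontin, was at 6495, 3473 and 393 CPM in 005 and 514, 361 and 204 CPM in Mut3 (3.26 ± 0.70, adjusted p = 0.00665), with replicate 3 inside the range of Mut3. Of 18 metallopeptidase genes and inhibitors, Mmp2, Mmp16 and Timp4 were lower and Timp1, Timp2 and Mmp9 higher, the higher share of 16.7% being near that of all genes. There were 3 lower and 4 higher without replicate 3, and 1 lower and 4 higher without replicate 2. Mmp2, the gelatinase, was at 6.695, 28.7 and 7.33 CPM in 005 and 139, 67.1 and 215 CPM in Mut3 (−3.302 ± 0.60, adjusted p = 0.00294).

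Mesenchymal genes were mostly higher in 005, with 13 higher and 2 lower of 22 tested and a median of 2.00 (2.29 without replicate 3, with the same counts). Without replicate 2 there were 11 higher and 1 lower, with a median of 1.54. Cdh2, or N-cadherin, was at 80.2, 112 and 76.04 CPM in 005 and 7.16, 4.28 and 7.21 CPM in Mut3 (3.84 ± 0.33, adjusted p = 1.94e-05), and naïve brain was at 59.8 to 104 CPM. Cd44, the hyaluronan receptor, was at 289, 289 and 58.5 CPM in 005, 27.3, 68.1 and 60.6 CPM in Mut3 and 9.996 to 13.2 CPM in naïve brain (2.03 ± 0.49, adjusted p = 0.0119). Replicate 3 of 005 lay within the range of Mut3 for Cd44 and Runx1, and below it for S100a6 and Lgals1. Lgals1, a galectin, reached 19523, 15330.5 and 1710.4 CPM in 005 and 2199, 2389 and 2596 CPM in Mut3 (2.35 ± 0.58, adjusted p = 0.0129; 2.81 without replicate 3). Tgfbi, Chil1, Tnc, Thbs1, Fosl2, Twist1, S100a4 and Lgals3 were higher too. Snai2 and Zeb1, transcription factors of the epithelial to mesenchymal transition, were lower, Snai2 at 0.618, 0.604 and 0.427 CPM in 005 and 3.804, 4.15 and 2.46 CPM in Mut3, but Snai2 was not called without Mut3 replicate 1 or 2. Zeb1 (−1.09) was close to both thresholds and was not called without 005 replicate 1 or 2 or without Mut3 replicate 1 or 2. Several of these genes, among them Tgfbi, Lgals3 and Cd44, are also expressed by macrophages, whose markers summed to 10004, 17494 and 3969 CPM in 005 and 1726 to 1936 CPM in Mut3, and their part in the result was not tested. The marker list holds Tgfbi itself, and also Spp1, which made up most of the sum in 005 replicate 1. The sums are therefore no separate measure of macrophages.

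**Figure D3:**
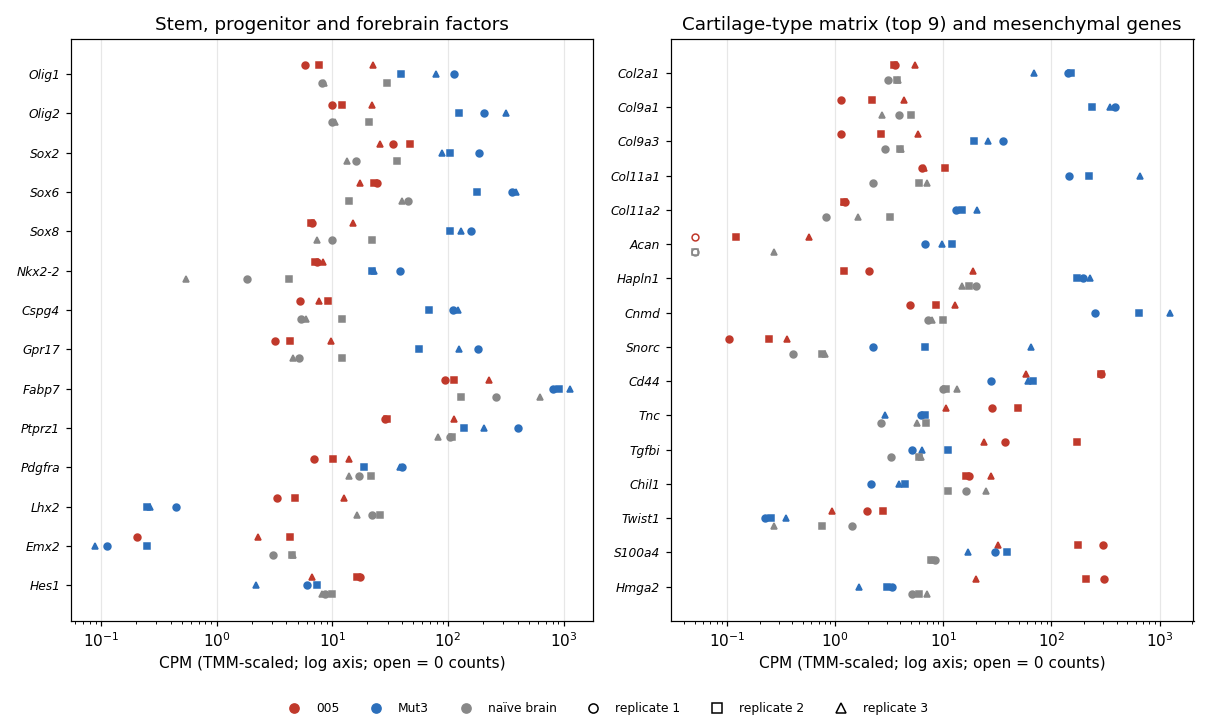
CPM (TMM-scaled, log axis) per sample of stem, progenitor and forebrain factors (left) and of cartilage-type matrix genes (the 9 uppermost) and mesenchymal genes with Hmga2 (right), with colors for 005, Mut3 and naïve brain and shapes for the replicate. From Olig1 to Pdgfra the Mut3 samples lie to the right of 005, and from Lhx2 to Hes1 most lie to the left. For the cartilage-type collagens and Cnmd 005 lies near naïve brain. Most 005 points of Hapln1 and all of Snorc lie to the left of naïve brain, those of Snorc near the floor. Hmga2 reaches 307 CPM in 005 and at most 3.36 CPM in Mut3.

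The oncofetal chromatin proteins parted the lines. Hmga2 (chr10:120361275-120476469), which bends DNA and is usually restricted to embryonic cells, was at 307, 208 and 20.01 CPM in 005, 3.36, 3.02 and 1.67 CPM in Mut3 and 5.1, 5.98 and 7.03 CPM in naïve brain (6.06 ± 0.77, adjusted p = 0.00036; 6.54 without replicate 3). Its relative Hmga1 was at 83.4, 53.8 and 8.54 CPM in 005 and 0, 1.38 and 2.29 CPM in Mut3 (5.26 ± 0.90, adjusted p = 0.00212). Both were below naïve brain in all Mut3 samples and above it in all 005 samples, and Hmga2 in CT2A and GL261 tumors was between 24.7 and 157 CPM. Myc was lower in 005, at 58.2, 47.1 and 12.4 CPM against 158, 159.5 and 86.9 CPM in Mut3 (−1.78 ± 0.44, adjusted p = 0.0133), as was Mycl (−2.13 ± 0.55), so the list of 9 tested held 2 higher and 2 lower, also without replicate 3. Myc and Mycl were not called without Mut3 replicate 1. Of 17 imprinted genes tested, H19, Cdkn1c and Phlda2 were lower. H19, a noncoding RNA, was at 4.22, 5.19 and 6.41 CPM in 005 and 132, 84.8 and 22.8 CPM in Mut3 (−3.91 ± 0.54, adjusted p = 0.000533). Cdkn1c, the cell cycle inhibitor p57, was at 1.44, 0.966 and 4.06 CPM in 005 and 36.2, 23.8 and 18.7 CPM in Mut3 (−3.57 ± 0.55, adjusted p = 0.00128). Igf2, Peg3, Ndn, Zdbf2, Meg3 and Rian were higher, each with its highest 005 value in replicate 3 and high values in naïve brain, and only Peg3 and Ndn of these kept their calls without it (3 higher and 3 lower, with Mest added). Of the 39 Hox genes, 12 passed the filter on low counts. Hoxd8 was at 11.5, 16.8 and 0.854 CPM in 005 and 0, 0.377 and 0.176 CPM in Mut3 (5.63 ± 1.09, adjusted p = 0.00401). Hoxa2 was lower, and Hoxa13 had 0 counts in 005 and 5.03, 2.39 and 0.792 CPM in Mut3, at least 27.6-fold higher there. Without replicate 3, Hoxa7 and Hoxc9 were higher in 005 as well.

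Cell cycle genes differed in parts. Ccnd2, a cyclin of the G1 phase, was at 338, 355 and 49.6 CPM in 005 and 3.02, 19.8 and 24.5 CPM in Mut3 (3.97 ± 0.76, adjusted p = 0.00384). Its relative Ccnd1 was at 746, 762 and 74.5 and 107, 43.8 and 114 CPM (2.58 ± 0.61, adjusted p = 0.0109). These were the only called genes among 19 G1 cyclins, kinases and inhibitors, also without replicate 3. Of 25 mitosis genes, Mki67 alone was called, at 63.3, 94.3 and 7.903 CPM in 005 and 273, 123 and 284 CPM in Mut3 (−2.04 ± 0.60, adjusted p = 0.0279), but not without 005 replicate 1 or Mut3 replicate 1 or 3, and the median of the list was −0.65, or −0.20 without replicate 3. Replicate 3 had the lowest summed level of the list, 345 CPM, against 3082 and 3767 in the other 005 samples, 2437 to 4655 in Mut3 and 94.9 to 122 in naïve brain. DNA replication genes held 6 lower and 0 higher of 25, with a median of −1.13 (4 lower and a median of −0.73 without replicate 3). Gins2, a subunit of the replicative helicase, was at 13.4, 21.2 and 7.05 CPM in 005 and 115, 53.2 and 165 CPM in Mut3 (−3.001 ± 0.57, adjusted p = 0.0036), and Mcm5, Pola1, Cdc6, Cdt1 and Tyms were the others. Cdc6 and Cdt1 lost their calls without replicate 3.

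Stress and metabolic genes gave smaller differences. Atf4, the transcription factor of the integrated stress response, was at 141, 159 and 60.5 CPM in 005, 40.8, 38.4 and 34.7 CPM in Mut3 and 41.9 to 58.3 CPM in naïve brain (1.66 ± 0.33, adjusted p = 0.00468). Its partners Cebpb (3.11 ± 0.54) and Ddit3 (1.54 ± 0.34) were higher too, which made 3 of 20 in the list, a share near that of all genes, and 6 of 20 without replicate 3, when Chac1, Atf5 and Slc7a11 joined them. The serine synthesis genes Phgdh and Psat1 were not called. Of 25 hypoxia and glycolysis genes, 4 were lower and 1 was higher (3 and 1 without replicate 3, 2 and 1 without replicate 2). Ldha, lactate dehydrogenase, was at 849, 777 and 418 CPM in 005 and 1782, 1558 and 1647 CPM in Mut3 (−1.29 ± 0.36, adjusted p = 0.0227) and was not called without Mut3 replicate 1 or 3. The enolase Eno1 differed by −1.44 ± 0.31. Car9 and Ankrd37, genes induced by hypoxia, were lower as well, whereas Ndrg1, at 23.9, 26.4 and 75.5 CPM in 005 and 3.36, 4.91 and 2.81 CPM in Mut3, was higher (3.51 ± 0.54, adjusted p = 0.0012). Among 29 genes of Notch, Wnt, Hedgehog and BMP signalling, 10 were higher and 0 lower, or 5 and 1 without replicate 3. Gli3, a Hedgehog transcription factor, was at 12.98, 16.3 and 9.19 CPM in 005 and 0.336, 3.52 and 0.967 CPM in Mut3 (3.01 ± 0.72, adjusted p = 0.0114), and Bmp2, Wnt5a, Hhip and Tcf7 also kept their calls, while Id4, Lef1, Sfrp1, Bmp7 and Dkk3 did not. Rnf43, an antagonist of Wnt signalling, was lower without replicate 3.

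Immune genes made up the broadest group of differences, and all the called ones in the lists of antigen presentation, interferon, chemokine, complement and checkpoint genes were higher in 005. MHC class II molecules present peptides to CD4 T cells, and their genes are switched on together by Ciita. Of 12 class II genes tested, 9 were higher and 0 lower, with a median of 3.01 (10 higher and 3.26 without replicate 3, 5 higher and 1.88 without replicate 2). H2-Aa was at 701, 3816 and 759 CPM in 005, 44.97, 158 and 422 CPM in Mut3 and 37.7 to 47.8 CPM in naïve brain (3.08 ± 0.78, adjusted p = 0.0147). The lowest 005 sample was above the highest Mut3 sample, and Mut3 itself spread over a wide range, while CT2A and GL261 tumors were between 140.2 and 4285 CPM. Without 005 replicate 2 the fold change of H2-Aa was 1.81 at an adjusted p of 0.0709 and was not called, nor was it without Mut3 replicate 2. Ctss, the protease that trims the invariant chain, was at 1089.8, 4061 and 1074 CPM in 005 and 85.5, 221 and 289 CPM in Mut3 (3.38 ± 0.56, adjusted p = 0.00188). Ciita was at 1.55, 19.6 and 3.92 CPM in 005 and 0.224, 0.881 and 1.495 CPM in Mut3 (3.21 ± 0.99, adjusted p = 0.0366), again with replicate 2 highest, and was not called without it (1.63, adjusted p = 0.217). H2-Ab1, H2-Eb1, H2-DMa, H2-DMb2, H2-Oa and Cd74 were the other higher genes, and H2-DMb1, H2-Ob and Rfx5 were not called. Class I presentation genes gave 7 higher of 19 (10 without replicate 3, 4 without replicate 2). Tapbp, which loads peptides, was at 77.8, 291 and 47.6 CPM in 005 and 20.1, 24.4 and 29.1 CPM in Mut3 (2.498 ± 0.57, adjusted p = 0.00876). H2-K1, at 639, 2077 and 390.0 and 111, 261 and 342 CPM (2.12 ± 0.55, adjusted p = 0.0161), was not called without replicate 2, and B2m was not called (1.01 ± 0.54, adjusted p = 0.2). H2-Q4, H2-Q6 and H2-Q7 were higher too, but they share reads among the H2-Q genes and are uncertain.

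Genes induced by interferon-gamma were higher in 18 of 27 cases, with 0 lower and a median of 2.56 (23 and 2.89 without replicate 3, 10 without replicate 2). Cxcl9, a ligand of the chemokine receptor Cxcr3 of T cells, was at 174, 2706 and 101 CPM in 005, 6.601, 8.68 and 42.6 CPM in Mut3 and 0.612, 1.25 and 4.06 CPM in naïve brain (5.68 ± 1.21, adjusted p = 0.00649). Gbp4, a guanylate-binding protein, was at 47.1, 391 and 32.3 CPM in 005 and 4.59, 4.15 and 10.5 CPM in Mut3 (4.602 ± 0.81, adjusted p = 0.00252). Ubd, a ubiquitin-like protein, was at 66.1, 517 and 69.1 and 1.902, 1.38 and 9.94 CPM (5.595 ± 1.01, adjusted p = 0.00282). All 3 were highest in replicate 2 and still called without it. Ifng itself was at 1.24, 9.54 and 1.71 CPM in 005 and 0, 0.377 and 0.0880 CPM in Mut3 (4.67 ± 1.22, adjusted p = 0.017) and was not called without replicate 2 (3.19, adjusted p = 0.0796). The receptor subunit Ifngr2, at 14.01, 22.3 and 19.5 CPM in 005 and 5.59, 5.79 and 4.49 CPM in Mut3 (1.81 ± 0.31, adjusted p = 0.00203), was even across the 005 samples. Type I interferon-stimulated genes were higher in 9 of 30 cases (30%, against 14.0% of all tested genes) with a median of 1.31 (14 and 1.53 without replicate 3). Without replicate 2 only 2 of 30 were higher, a share below the 12.7% of all tested genes in that fit. Zbp1 and Cmpk2 were those 2. Zbp1, a sensor of nucleic acids, was at 93.7, 258 and 33.1 CPM in 005 and 8.06, 31.6 and 10.8 CPM in Mut3 (2.93 ± 0.65, adjusted p = 0.00767). Ido1, at 0.824, 27.9 and 6.19 CPM in 005 against 2 counts in all of Mut3, had a pooled ratio of 144 (95% interval 39.5 to 1192, counting error only), and its log2 fold change of 7.06 was 5.35 without replicate 2, which was still called.

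Promoters of these genes were searched for the Y box of class II genes, CTGATTGG, and for an interferon response element, GAAA and GAAA with 2 bases between them, on both strands, in windows from 250 bases before to 50 bases after the start, with RefSeq sequences on GRCm38.p6. The Y box was in 33.3% of the 9 class II genes with a promoter in the table and in 4.10% of all 32851 promoters. The interferon element was in 50.0% of 22 interferon-gamma genes, 57.1% of 21 type I genes and 3.44% of all promoters. These are matches of letters and do not show binding, and hits of the interferon element can overlap each other. Some genes with a hit have near-identical sequence around it, as Igtp has with Irgm2 and Tgtp1 with Tgtp2, so the genes are not independent cases. The stretches below run 5′ to 3′ along the strand of the gene, show the match in capitals for genes that were higher in 005, and were chosen to show how near to the start it lies, the Y box first.
H2-Aa (chr17:34287814-34287943, minus strand): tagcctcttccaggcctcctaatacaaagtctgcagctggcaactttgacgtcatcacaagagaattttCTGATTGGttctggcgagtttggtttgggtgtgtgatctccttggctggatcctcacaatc
H2-Eb1 (chr17:34305747-34305876, plus strand): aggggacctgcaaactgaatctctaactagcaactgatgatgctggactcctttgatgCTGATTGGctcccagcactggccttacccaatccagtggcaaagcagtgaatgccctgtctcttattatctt
H2-Oa (chr17:34092259-34092388, plus strand): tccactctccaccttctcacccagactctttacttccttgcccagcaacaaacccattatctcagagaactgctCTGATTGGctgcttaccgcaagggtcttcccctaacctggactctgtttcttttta
Gbp2 (chr3:142620543-142620672, plus strand): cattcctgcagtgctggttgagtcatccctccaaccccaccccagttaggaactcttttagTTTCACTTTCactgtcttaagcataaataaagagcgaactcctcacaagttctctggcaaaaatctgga
Gbp3 (chr3:142559924-142560053, plus strand): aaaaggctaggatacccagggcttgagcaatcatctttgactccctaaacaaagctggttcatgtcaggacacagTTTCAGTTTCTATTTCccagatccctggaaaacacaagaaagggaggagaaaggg
Socs1 (chr16:10785527-10785656, minus strand): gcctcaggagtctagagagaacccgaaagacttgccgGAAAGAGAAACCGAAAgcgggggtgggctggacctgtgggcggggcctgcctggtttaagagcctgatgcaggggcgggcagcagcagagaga
The Y box began 51, 62 and 46 bases before the start in H2-Aa, H2-Eb1 and H2-Oa. The interferon element began 59, 45 and 83 bases before the start in Gbp2, Gbp3 and Socs1, and Gbp3 and Socs1 hold 2 overlapping hits each. Gbp2 was at 471, 2463 and 157 CPM in 005 and 24.8, 61.3 and 154 CPM in Mut3 (3.69 ± 0.83, adjusted p = 0.00834), whereas Gbp3 overlapped between the lines through replicate 3, at 133, 504 and 53.8 CPM against 26.9, 53.7 and 89.5 CPM (2.02 ± 0.62, adjusted p = 0.0334). Neither Gbp3 (0.72) nor Socs1 (0.98) was called without replicate 2. Socs1, an inhibitor of interferon signalling, was at 1.24, 9.18 and 0.997 CPM in 005 and, near the floor, at 0.336, 0.629 and 0.704 CPM in Mut3.

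Chemokines and their receptors were higher in 22 of 28 cases, with 0 lower and a median of 2.84 (20 without replicate 3, 17 without replicate 2). Ccl6, a chemokine of myeloid cells, was at 278, 578 and 88.8 CPM in 005 and 3.58, 11.7 and 15.6 CPM in Mut3 (4.93 ± 0.68, adjusted p = 0.00055). Ccl8, which attracts monocytes and T cells, was at 382, 3751 and 299.5 CPM in 005 and 14.5, 19.1 and 42.9 CPM in Mut3 (5.85 ± 0.95, adjusted p = 0.00167). Cxcr6, a receptor of activated T cells, was at 12.9, 36.2 and 17.2 CPM in 005 and 0.336, 1.76 and 2.02 CPM in Mut3 (3.98 ± 0.60, adjusted p = 0.00103), with no overlap for any of the 3. Complement gave 13 higher and 0 lower of 16 tested (13 without replicate 3, 11 without replicate 2), among them the initiating chains C1qa, C1qb and C1qc, and C3, at 21.8, 451 and 97.4 CPM in 005 and 5.48, 6.17 and 12.8 CPM in Mut3 (4.53 ± 0.91, adjusted p = 0.005). Checkpoint and costimulatory genes gave 14 higher of 21 (16 without replicate 3, 11 without replicate 2). Sirpa, the receptor of CD47 on myeloid cells and neurons, was at 58.6, 164 and 159 CPM in 005, 12.5, 14.97 and 19.9 CPM in Mut3 and 178 to 235 CPM in naïve brain (3.01 ± 0.41, adjusted p = 0.00053). Cd274, which encodes PD-L1, was at 16.3, 86.4 and 9.83 CPM in 005 and 2.46, 2.14 and 6.07 CPM in Mut3 (3.38 ± 0.73, adjusted p = 0.00697; 1.86 without replicate 2). Its receptor Pdcd1 was at 3.19, 11.3 and 4.63 and 0, 0.503 and 0.967 CPM (3.62 ± 0.95, adjusted p = 0.0171), which was not called without replicate 2. Cytokine and TGF-beta genes were higher in 8 of 22 cases (8 without replicate 3, 7 without replicate 2), with Csf1 (2.31 ± 0.40), Il34 (2.704 ± 0.42), Lif (3.32 ± 0.68) and Tgfbr2 (2.46 ± 0.44) at the smallest p. Gdf15 was the only lower gene there and was close to the floor in 005 at 0.103, 0.362 and 0.285 CPM. Its call did not hold when single samples were left out. Of the list, 1 member was lower without replicate 3 and 0 without replicate 2.

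Markers of T cells and cytotoxic cells were higher in 005 as well. Of 18 T cell genes tested, 15 were higher and 0 lower, with a median of 3.70 (14 and 3.89 without replicate 3, 10 and 2.66 without replicate 2). Cd3g, a chain of the T cell receptor complex, was at 25.2, 141 and 45.2 CPM in 005, 2.35, 1.64 and 5.805 CPM in Mut3 and 0.498 to 2.97 CPM in naïve brain (4.41 ± 0.76, adjusted p = 0.00233). Cd8a, the coreceptor of cytotoxic T cells, was at 6.39, 46 and 11.1 CPM in 005 and 0.671, 0.881 and 2.73 CPM in Mut3 (3.84 ± 0.73, adjusted p = 0.00374). Replicates 1 and 3 of 005 were close to each other for both genes, above Mut3, and replicate 2 was several times higher. Cd5 had 0 counts in Mut3 and 0.515, 2.897 and 3.35 CPM in 005, at least 22.3-fold higher. Thy1, which neurons also express, was not called without replicate 3. Of 14 cytotoxic genes, 10 were higher, with a median of 3.53 (11 without replicate 3, 6 without replicate 2). Gzmb, the granzyme of killer cells, was at 18.7, 202 and 80.2 CPM in 005 and 2.13, 2.14 and 1.76 CPM in Mut3 (5.63 ± 0.76, adjusted p = 0.000513). Nkg7 was at 29.4, 195 and 42.6 and 1.23, 1.76 and 10.2 CPM (4.31 ± 0.81, adjusted p = 0.00349). Of 7 B cell genes tested, Cd79b, Ighm, Fcrla and Jchain were higher, Fcrla at least 14.4-fold against 0 counts in Mut3, and Cd79b (3.57 ± 0.78) and Ighm (2.53 ± 0.60) remained so without replicate 3 and also without replicate 2, while Fcrla and Jchain did in neither case.

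The leukocyte gene Ptprc was at 46.2, 261 and 50.1 CPM in 005, 9.398, 2.26 and 11.1 CPM in Mut3 and 1.74 to 4.49 CPM in naïve brain (3.96 ± 0.75, adjusted p = 0.00353). Of 22 monocyte and macrophage genes, 18 were higher and 1 lower, with a median of 2.65 (the same counts and 2.86 without replicate 3, 15 and 1 without replicate 2). Itgam, the integrin CD11b, varied little, at 28.02, 36.7 and 28.1 CPM in 005 and 1.79, 4.53 and 3.08 CPM in Mut3 (3.301 ± 0.37, adjusted p = 0.00014). Mrc1, the mannose receptor, was at 38.3, 68.5 and 17.6 CPM in 005 and 3.47, 5.03 and 2.99 CPM in Mut3 (3.43 ± 0.50, adjusted p = 0.000823). Arg1, arginase, was at 113, 277 and 52.97 and 11.3, 18.6 and 9.76 CPM (3.48 ± 0.75, adjusted p = 0.00678). Gpnmb, a membrane glycoprotein of lysosomal and pigment cells, was the exception, at 43.6, 57.3 and 18.7 CPM in 005, 320.1, 210.0 and 247 CPM in Mut3 and 5.92 to 10.5 CPM in naïve brain (−2.702 ± 0.37, adjusted p = 0.00055). Of 15 microglia genes, 10 were higher with all samples, 9 without replicate 2 and 6 without replicate 3, when Sparc was lower. The summed CPM of this list, which includes Sparc, overlapped between the lines, at 526, 587 and 737 in 005 and 645, 711 and 361 in Mut3. The purine receptor P2ry12, the best known marker of resting microglia, was at 12.1, 9.05 and 38.02 CPM in 005, 1.902, 4.78 and 5.54 CPM in Mut3 and 60.2, 31.9 and 57.6 CPM in naïve brain, and its call (2.27 ± 0.57, adjusted p = 0.0143) was lost without replicate 3 (1.30, adjusted p = 0.0767). Of 12 dendritic cell genes, 4 were higher (3 without replicate 3 and 3 without replicate 2). Itgax (4.16 ± 0.71), Ccr7 (4.39 ± 1.00), Irf8 (2.56 ± 0.64) and Siglech were these, Siglech not without replicate 3 and Irf8 not without 005 replicate 2 or Mut3 replicate 1. Among granulocyte and mast cell genes, 9 of 20 passed the filter and 6 were higher (4 without replicate 3, when Prg2 and Kit were not called, and 5 without replicate 2). Retnlg and S100a8, genes of neutrophils, were at 6.695, 21.1 and 13.7 and 5.67, 20.5 and 27.2 CPM in 005 and at 0.112, 1.64 and 0.176 and 1.68, 3.52 and 2.11 CPM in Mut3, while Ly6g, Siglecf and Epx were too low to be tested.

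**Figure D4:**
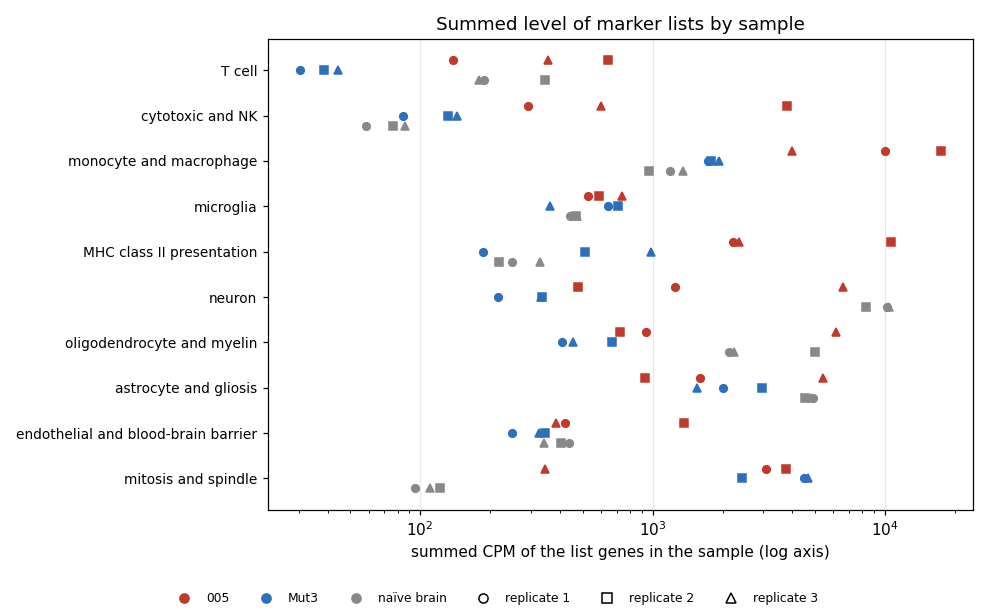
Summed CPM of the genes of 10 lists in each sample (log axis), with colors for 005, Mut3 and naïve brain and shapes for the replicate. The T cell list includes Thy1, which neurons also express, and its sum of 180 to 343 CPM in naïve brain is no measure of T cells there. 005 replicate 2 (square) has the highest sums of the cytotoxic, macrophage and MHC class II lists, and 005 replicate 3 (triangle) lies closest of the tumors to naïve brain for the neuron, astrocyte and mitosis lists, at 6611 CPM for neuron genes.

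With all samples, genes of brain cells were higher in 005 more often than the 14.0% of all tested genes, chiefly through replicate 3. Of 28 neuron genes, 23 were higher with a median of 3.66, 8 were higher with a median of 1.78 without replicate 3, and 25 without replicate 2. Nefm, a neurofilament chain, was at 48.4, 15.3 and 195 CPM in 005, 1.79, 4.78 and 3.87 CPM in Mut3 and 191, 194 and 197 CPM in naïve brain (4.63 ± 0.84, adjusted p = 0.00294). Snap25, a synaptic vesicle fusion protein, was at 267, 77.9 and 1827 CPM in 005, 26.6, 59.5 and 56.6 CPM in Mut3 and 2369, 1810.0 and 3349.5 CPM in naïve brain, and was not called without replicate 3 (1.80, adjusted p = 0.0779). Replicate 3 was thus at or near brain level, and replicate 1 was between it and Mut3. Oligodendrocyte and myelin genes gave 10 higher of 17, and 5 higher and 2 lower without replicate 3, the lower ones being Sox10 (−1.90) and Cnp (−2.33). Astrocyte genes gave 5 higher of 19 with all samples. Without replicate 3 there were 3 higher and 4 lower, with a median of −0.11, against 9.63% and 6.5% of all tested genes. Gja1, the gap junction protein connexin 43, was at 160.5, 98.99 and 227 CPM in 005, 20.1, 18.2 and 21.02 CPM in Mut3 and 235, 106 and 244 CPM in naïve brain (3.03 ± 0.40, adjusted p = 0.000426), and remained called without that replicate (2.65) as did Gjb6 and Aqp4. In the absence of replicate 3, Gfap (−1.86), Aldoc (−1.88), S100b (−3.49) and Agt (−6.06) were the 4 lower genes, none of them called with all samples. Ependyma and choroid plexus genes were higher in 6 of 11 cases and in 1 of 11 without replicate 3, the water channel Aqp1. The transthyretin gene Ttr, which lost its call, was at 465, 1897 and 13557 CPM in 005 and 473, 438 and 869 CPM in Mut3.

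Few vascular genes were called. Of 25 endothelial genes, Ly6c1 and Cdh5 were higher (8%, against 14.0% of all tested genes) and Angpt2 was lower (4%, against 5.76%). All 005 samples lay above all Mut3 samples for 8 of the 25, against 18.3% of all tested genes. They lay below for 1, against 15.9%. Ly6c1, which some leukocytes also express, was at 149, 934 and 80.6 CPM in 005 and 11.2, 25.9 and 17.2 CPM in Mut3 (4.42 ± 0.79, adjusted p = 0.0026), and shares sequence with the Ly6 family. Cdh5, the endothelial cadherin, was at 7.73, 14.5 and 4.84 CPM in 005 and 4.14, 3.397 and 3.17 CPM in Mut3 (1.33 ± 0.43, adjusted p = 0.0418), and its call was lost when any sample of the lines other than 005 replicate 3 was left out. Angpt2, an angiopoietin released by endothelium, was at 17.1, 25.4 and 8.76 CPM in 005 and 22.7, 55.4 and 71.3 CPM in Mut3, overlapped between the lines and was not called without 005 replicate 1 or 3 or Mut3 replicate 2 or 3. The median of the endothelial list was 0.25. Of 15 mural and fibroblast genes, Thy1 was higher and Pdgfra lower, and both are also markers of other cells (neurons and oligodendrocyte progenitors). Among 6 blood genes tested, the platelet chemokine Pf4 was higher (2.17 ± 0.44, adjusted p = 0.00485). Of 6 sex-linked genes, Xist, which is expressed from the inactive X chromosome, was at 19.7, 45.9 and 47.4 CPM in 005 and 2.797, 9.06 and 12.1 CPM in Mut3 (2.23 ± 0.73, adjusted p = 0.0425) and was not called without 005 replicate 2 or 3 or without any of the Mut3 replicates. The labels do not give the sex of the mice or of the animals behind the lines, and Ddx3y, on the Y chromosome, did not pass the filter on low counts.

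**Figure D5:**
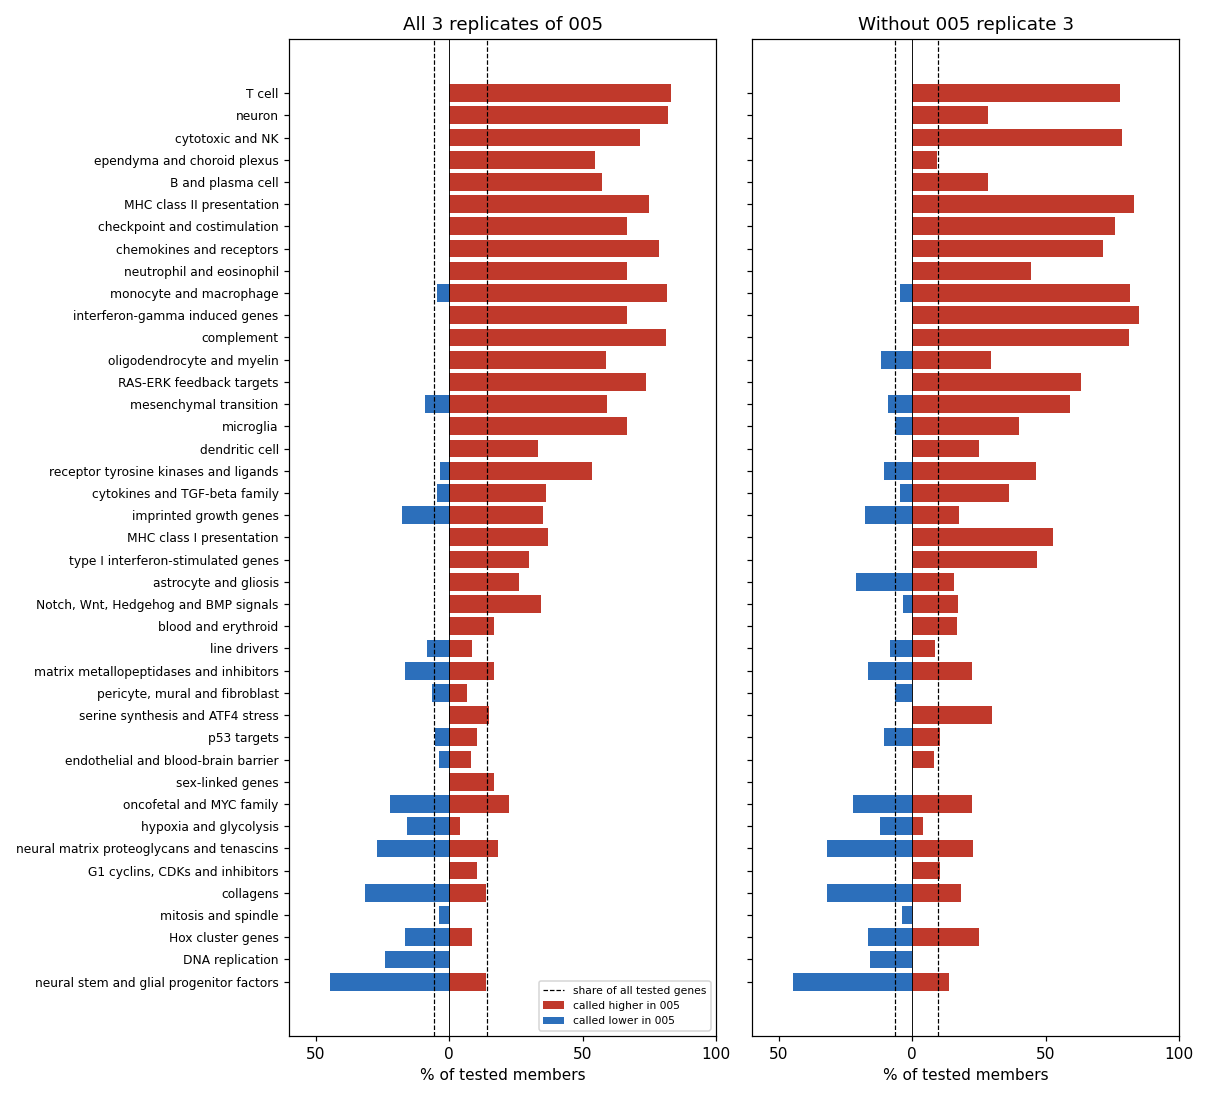
Share of the tested members of each of 41 lists called higher (right of 0) or lower (left of 0) in 005, with all 3 replicates of 005 (left) and without replicate 3 (right), against dashed lines at the shares among all tested genes, 14.0% and 5.76% on the left and 9.63% and 6.5% on the right. The MHC, interferon, chemokine, complement, T cell and macrophage lists keep most of their shares in both panels, the neuron and ependyma lists lose most of theirs on the right, the oligodendrocyte list falls from 10 to 5 of 17 members, and the progenitor and collagen lists stand out toward lower values in both. Neither panel leaves out 005 replicate 2, the sample highest in immune genes. Without it the higher genes were 10 of 27 (interferon-gamma), 2 of 30 (type I), 5 of 12 (class II) and 4 of 19 (class I). The numbers were 10 of 18 for T cell, 17 of 28 for chemokine, 11 of 16 for complement and 15 of 22 for macrophage genes.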

How the data were processed

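RNA sequencing of brain tumor tissue and naïve brain gave 15 libraries, of which the 3 of 005 and the 3 of Mut3 are compared here and all 15 entered the fits. The authors deposited estimated counts per gene, which need not be whole, and TPM values, scaled for gene length and depth, from the same libraries. The submitters' processing notes name STAR 2.4.2a, Salmon, DESeq2 1.18.1 and the mm10 build, and the annotation release and the strand setting of the counting are not given in the sources used here, so reads of overlapping and antisense genes cannot be told apart. The 2 tables are not independent, since the counts are the TPM values multiplied by 1 constant for each gene and 1 for each sample (log2 residuals of at most 9.6e-10 over 4644 genes). Samples were grouped by their labels. The mice of a group are separate animals, the labels name no sequencing batch, and each 005 and Mut3 group is 1 line.

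Counts were rounded and filtered with filterByExpr, which left 17481 of 46679 genes. They were scaled by TMM and tested with edgeR 4.0.16 in R 4.3.3 by the quasi-likelihood test, with a mean per group over all 15 samples and Benjamini-Hochberg adjustment. The standard error is the log2 fold change divided by the root of F. CPM values are relative to the TMM-scaled library size. The floor of 3 counts was 0.214 to 0.362 CPM in 005 and 0.264 to 0.377 CPM in Mut3, and floors and intervals (95%) cover counting error only. An exact permutation test of 3 against 3 cannot go below p = 0.1 and was not used. Alternatives used library size scaling, other filters and sample sets, each replicate left out, a replicate block, DESeq2 1.42.0, limma 3.58.1 with voom sample weights, and limma on log2(TPM + 1) or log2(TPM + 0.1).

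Positions are from GENCODE M21 on GRCm38, matched for 46269 IDs, and promoters are from RefSeq on GRCm38.p6. The 41 gene lists hold 814 genes, of which 733 were tested. The comparison, its members and the lists were chosen with earlier results of these data known. Named genes were, in each direction, the 12 with the largest change among called genes without overlap, whose higher group averaged 3 or more in log2 CPM, called also without 005 replicate 3 and with an established symbol. To these were added up to 4 called members per list and direction with the smallest p, the most abundant member of a list with no call, the genes altered in the lines, and Mki67, Ptprc, Cd8a, H2-Aa, Xist and Ddx3y. Other list members named in the text were chosen after their values were seen, and a few genes of the lists are counted but not reported here by name.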

Additional observations from a re-analysis of the deposited data

Results flagged for a closer look

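For 11 named genes, all 3 samples of one line lay above and all 3 of the other below every sample of naïve brain. The same held for 112 (0.641%) of the 17481 genes tested and for 101 of the 3463 called. This is an order of samples only, since neither line was tested against naïve brain here. The margin to naïve brain was narrow for some of the named genes, such as Atf4 and Dusp5. The difference between the lines was tested by edgeR's quasi-likelihood test with Benjamini-Hochberg adjustment, but a gene was considered here only if it was called, so passing that test was part of the choice and is no separate support. Itgam, the integrin CD11b, was at 7.97 to 11.6 CPM in naïve brain and differed between the lines by 3.301 (log2 of 005 over Mut3). Hmga2 (6.06) and Hmga1 (5.26) were the chromatin proteins among them, with naïve brain at 5.1 to 7.03 and 4.69 to 5.98 CPM. The ERK phosphatases Dusp6 (3.25) and Dusp5 (3.68) had naïve brain levels of 27.9 to 39.1 and 3.79 to 9.22 CPM. The others with 005 above were Ly6c1 (4.42), Ifngr2 (1.81) and Atf4 (1.66). The purine receptor P2ry13, at 9.99, 8.21 and 7.76 CPM in 005, 0.783, 2.39 and 1.32 CPM in Mut3 and 6.53, 5.48 and 4.33 CPM in naïve brain, differed by 2.53.

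In the opposite direction, the chondrocyte proteoglycan Snorc differed by −6.59, with naïve brain at 0.408 to 0.811 CPM. The floor of 3 counts was 0.612 to 0.811 CPM in naïve brain and 0.214 to 0.362 CPM in 005. Both groups lay at or near it, so the order of 005 and naïve brain is uncertain for Snorc. The hypoxia-induced gene Ankrd37 was at 7.004, 2.897 and 7.48 CPM in 005, 26.1, 21.1 and 19.3 CPM in Mut3 and 12.4, 8.47 and 11.1 CPM in naïve brain, and differed by −1.93.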

How the results depend on the processing

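The number of genes higher in 005 was 1177 to 2591 when each replicate was left out in turn, and the number lower was 583 to 1189. Mut3 replicates 1 and 3 lowered both counts most, to 1177 and 585 without replicate 1 and to 1549 and 583 without replicate 3. With at least 10 counts in every sample 1460 genes were higher and 579 lower, with the 005 and Mut3 samples only 584 and 341, on log2(TPM + 1) 684 and 404, and on log2(TPM + 0.1) 1400 and 579. A log2 fold change of at least 2 left 482 lower genes. With sample weights, where 005 replicate 3 had a weight of 0.155, there were 1760 higher and 1207 lower genes, and the higher ones were 59.32% of the calls. With the replicate number as a block, 1766 genes were higher and 785 lower, and same-numbered samples did not deviate together (correlations 0.0944, −0.109 and −0.0147, with 1 of 3 005 samples correlating best with its own number), so they share only a number. Of 194 named genes 184 were called, 89 kept their call under every setting and 0 reversed. Calls were lost for 68 of them on log2(TPM + 1), 65 with the 6 samples alone, 34, 23 and 26 without Mut3 replicates 1, 2 and 3, and 11, 18 and 18 without 005 replicates 1, 2 and 3. Nras, Akt1 and Akt2, which were not called, changed sign. Over the fits that each left out a replicate, the log2 fold change of Nras ran from −0.349 to 0.0894, of Akt1 from −0.408 to 0.192 and of Akt2 from −0.2296 to 0.201. With sample weights Nras was at 0.0911, Akt1 at 0.0284 and Akt2 at −0.158. Akt1 was at 0.0504 on log2(TPM + 1) and 0.0802 on log2(TPM + 0.1), and Akt2 at −0.0321 with library size scaling, −0.0341 with DESeq2, −0.0705 in the tumor samples only and −0.0718 with the block. The cause of these changes was not tested. Depth limits genes below about 0.377 CPM in 005 and Mut3, and below about 0.811 CPM in naïve brain.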

Other observations

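Fold changes were not spread evenly over the chromosomes. On chromosome 10, which carries Hmga2 and Dusp6, 758 genes were tested, of which 180 (23.7%) were higher in 005 and 13 (1.72%) lower, against 14.0% and 5.76% of all tested genes. The median log2 fold change of these genes was 0.68 with all samples and 0.68 without 005 replicate 3, and lay between 0.37 and 0.84 over all settings. The median difference of chromosome 10 genes from the naïve brain mean in log2 CPM, relative to all autosomes, was 0.30, 0.34 and 0.07 in 005 replicates 1, 2 and 3. In Mut3 it was −0.42, −0.21 and −0.53, so that each Mut3 sample lay below and each 005 sample above the autosomes as a whole. Genes of 1 chromosome are not independent replicates.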
